A study of Mus musculus with 18 samples.

Results

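The comparison described here asks how the liver miRNAs of mice kept on a high-fat diet with exercise differed from those of mice kept on a high-fat diet without it. The rule took the 3 libraries labelled HF+Ex and the 3 labelled HF, of 18 libraries in the series, and tested every miRNA that reached 5 RPM (reads per 1000000 reads of the library) in at least 3 of the 18. That left 351 miRNAs of the 758 listed. Every mouse was a wild type animal of the inbred strain C57BL/6J, the regimens began at 5 weeks of age, and livers were taken at 62 weeks. The labels give only abbreviations; HF was taken to mean a high-fat and LF a low-fat diet, Ex exercise, and CR calorie restriction. The HF+Ex group had the HF diet and Ex, the HF group the HF diet alone, the LF+Ex group the LF diet and Ex, and the LF group the LF diet alone; the LF+CR and HF+CR libraries entered the fit to set the spread. The kind of exercise and the composition of the diets are not given in the labels, nor is the sex of the mice or whether each library is a different mouse. The p-values therefore measure the spread between these libraries, part or all of which may be technical.

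A miRNA is a short RNA that guides the Argonaute protein to messenger RNAs and lowers their translation or stability. Pairing runs mainly through the seed, bases 2 to 8 of the mature miRNA, so miRNAs with the same seed have overlapping targets. Each hairpin precursor can give a mature miRNA from either of its arms, named 5p and 3p. In liver, miR-122 is the dominant hepatocyte miRNA, miR-33 lies within the gene of the sterol regulator SREBP-2 and acts on cholesterol export, miR-148a acts on the low-density lipoprotein receptor and on cholesterol transport, and the miR-17-92 cluster is known for growth and cell-cycle control.

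Shown here are 3 groups of related sequences and 1 further miRNA. They are the seeds of the called miRNAs, and the miR-130 seed and miR-33-5p, which hold miRNAs among the 12 with the smallest p. Others of these 12 are not shown, among them let-7g-3p and the miRNAs that were higher, let-7a-5p and miR-30e-3p. The mature sequences below are from RefSeq (GRCm38.p6), run 5′ to 3′ and have the seed in capitals; a RefSeq sequence was matched by name for 288 of the 351 tested miRNAs. The first group shares the seed of miR-17, the second that of miR-148, and the third that of miR-130. The third seed is also that of miR-301a-3p, which is not shown and differs more after the seed. The last line is miR-33.
miR-17-5p: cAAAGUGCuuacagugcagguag
miR-20a-5p: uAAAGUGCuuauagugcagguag
miR-106b-5p: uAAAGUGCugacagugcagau
miR-93-5p: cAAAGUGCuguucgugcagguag
miR-20b-5p: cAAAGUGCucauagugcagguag
miR-148a-3p: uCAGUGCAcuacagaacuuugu
miR-148b-3p: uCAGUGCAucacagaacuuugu
miR-152-3p: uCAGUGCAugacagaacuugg
miR-130a-3p: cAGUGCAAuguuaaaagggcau
miR-130b-3p: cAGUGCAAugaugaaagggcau
miR-33-5p: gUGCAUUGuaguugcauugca

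The sequences shown within a group differ at few places, counted from 1 at the 5′ end. Relative to miR-17-5p, miR-20a-5p has the differences C1U and C12U and is identical at the other 21 of 23 positions. Relative to miR-148a-3p, miR-148b-3p has C9U and U10C and is identical at 20 of 22 positions. How reads that match several miRNAs were assigned is not given in the sources used here, so the split between such close relatives is uncertain. Mir17 (chr14:115043671-115043754, plus strand) and Mir20a (chr14:115044157-115044263, plus strand) both lie in an exon of the long non-coding gene Mir17hg. Mir106b (chr5:138165737-138165818, minus strand) lies in an intron of Mcm7. Mir148a (chr6:51269812-51269910, minus strand) overlaps no other annotated gene, Mir148b (chr15:103285125-103285221, plus strand) lies in an intron of Copz1, and Mir33 (chr15:82198122-82198190, plus strand) lies in an intron of Srebf2, the gene of SREBP-2.

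The 6 libraries differed in depth. Reads on listed miRNAs were 2.38, 7.25 and 8.69 megareads in HF+Ex libraries 1, 2 and 3, and 6.36, 4.05 and 6.28 megareads in HF libraries 1, 2 and 3. The shallowest of all 18 libraries was thus HF+Ex 1. It also stood apart in miR-690, with 387, 11.8 and 13.6 RPM in HF+Ex livers 1, 2 and 3, against 22.0, 110 and 33.1 RPM in HF livers. A list of fragment-like entries that includes miR-690, used as a sign of RNA quality, summed to 107 to 676 RPM in HF+Ex livers, against 137 to 378 RPM in HF livers, with 0 of 6 called; the part of RNA quality in the results was not tested. Because RPM divides by the library total, an abundant miRNA that changes shifts the values of the rest, and in whole liver fewer cells of a type cannot be told apart from less of a miRNA per cell. The defining marker of liver was high in every library: miR-122-5p stood at 242405, 234912 and 267972 RPM in HF+Ex livers, against 236519, 201007 and 227759 RPM in HF livers.

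miR-17-5p, miR-20a-5p and miR-148a-3p were lower in HF+Ex livers than in HF livers, at 0.534, 0.554 and 0.494 of the HF level on the log2(RPM + 1) scale. These 3 of 351 miRNAs, or 0.855%, were called, that is, had an adjusted p under 0.05 (limma on log2(RPM + 1), Benjamini-Hochberg over all 351). All 3 fell, also 0.855%, and 0 rose, a share of 0%. At an unadjusted p under 0.05, 18 miRNAs (5.13%) were lower and 12 (3.42%) were higher in HF+Ex livers. Without a test, the 3 HF+Ex values lay all below the 3 HF values for 29 miRNAs (8.26%) and all above them for 34 (9.69%). The median log2 fold change of all 351 was -0.01, and the quartiles were -0.21 and 0.22.

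**Figure D1:**
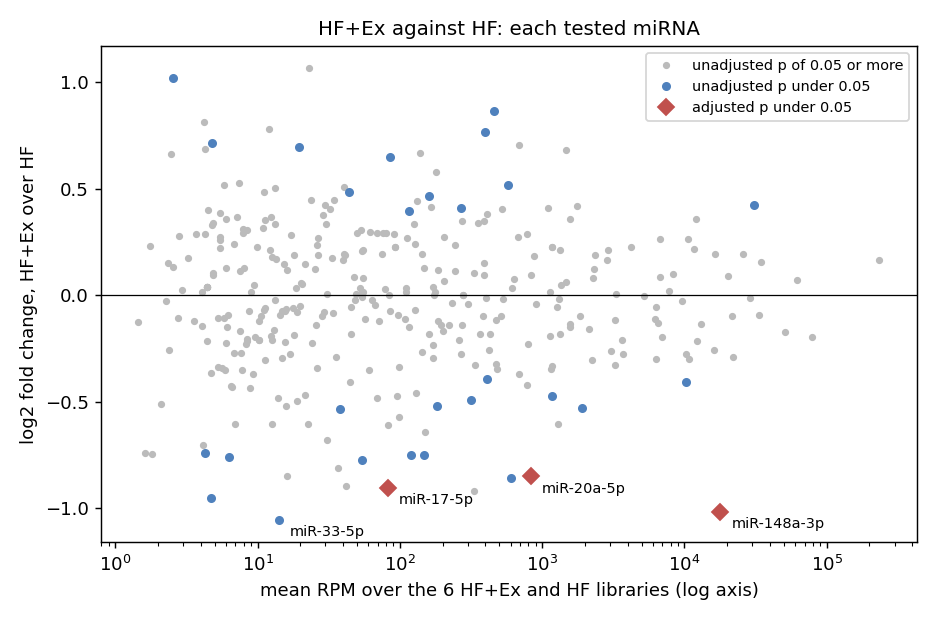
Each point is 1 of the 351 tested miRNAs, with its mean RPM over the 6 HF+Ex and HF libraries on a log axis and its log2 fold change, HF+Ex over HF, on the other. The 3 called miRNAs (diamonds) lie at -0.85 to -1.02, and 2 miRNAs lie above 1.

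miR-17-5p is a founding member of the miR-17-92 cluster. It stood at 73.2, 52.0 and 47.9 RPM in HF+Ex livers, against 106, 117 and 99.0 RPM in HF livers. The highest HF+Ex library was still below the lowest HF library. The mean was 57.7 ± 13.6 RPM in HF+Ex livers and 107 ± 9.01 RPM in HF livers (SD, n = 3 each), and the log2 fold change was -0.90 (SE 0.17, 95% interval -1.26 to -0.55, limma adjusted p = 0.0235).

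miR-20a-5p, made from the same primary transcript and bearing the same seed, stood at 748, 534 and 515 RPM in HF+Ex livers, against 1006, 1231 and 975 RPM in HF livers. Again the groups did not overlap, and HF+Ex 1 was the highest of its group. Its log2 fold change was -0.85 (SE 0.19, 95% interval -1.26 to -0.45, limma adjusted p = 0.0483).

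miR-148a-3p is among the abundant miRNAs of hepatocytes and ranked 13 of 351 by mean RPM. It stood at 13651, 11113 and 10722 RPM in HF+Ex livers, against 28463, 20913 and 22733 RPM in HF livers. All HF+Ex libraries were far below all HF libraries. The mean was 11828 ± 1590 RPM in HF+Ex livers and 24036 ± 3940 RPM in HF livers (SD, n = 3 each), with a log2 fold change of -1.02 (SE 0.22, 95% interval -1.48 to -0.56, limma adjusted p = 0.0429).

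The calls rested on most of the 6 libraries. Without HF+Ex 1, the shallow library, the count of called miRNAs was 5, the 3 above among them, while without any 1 of the other 5 libraries it was 0. For miR-17-5p the limma adjusted p was 0.209 without HF+Ex 2, 0.235 without HF+Ex 3, 0.0554 without HF 1, 0.0891 without HF 2 and 0.0675 without HF 3. For miR-148a-3p the limma adjusted p over the same 5 omissions lay between 0.0891 and 0.280. For miR-20a-5p it lay between 0.103 and 0.358. The log2 fold changes moved less: over all 6 omissions and the other alternatives they stayed between -1.09 and -0.78 for miR-17-5p, between -1.13 and -0.89 for miR-148a-3p and between -1.02 and -0.75 for miR-20a-5p.

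**Figure D2:**
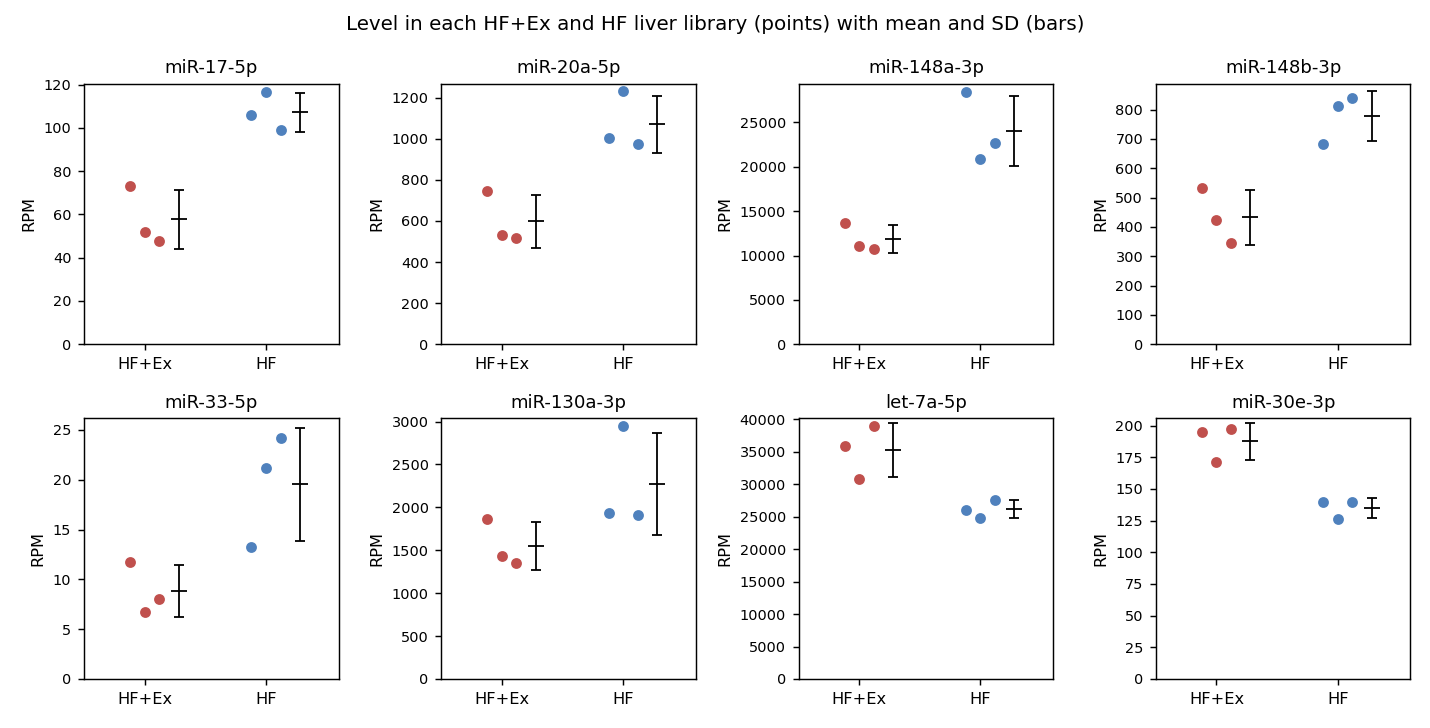
RPM of 8 miRNAs in each HF+Ex and HF library (points), with the mean and SD of 3 libraries beside them. In the panels of miR-17-5p, miR-20a-5p, miR-148a-3p, miR-148b-3p, miR-33-5p and miR-130a-3p the HF+Ex points lie below all HF points, and in those of let-7a-5p and miR-30e-3p above them.

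Next in order of p stood miR-33-5p, which did not pass the threshold. It had 11.8, 6.68 and 8.03 RPM in HF+Ex livers, against 13.2, 21.2 and 24.2 RPM in HF livers. The groups did not overlap, but HF+Ex 1 and HF 1 lay close together. The log2 fold change was -1.05 (SE 0.26, limma adjusted p = 0.0928), and without HF+Ex 1 it was -1.26 with an adjusted p of 0.0321. Its other arm, miR-33-3p, was at 3.66, 3.21 and 2.12 RPM in HF+Ex livers, against 5.32, 5.47 and 6.01 RPM in HF livers, without overlap, with a log2 fold change of -0.74 and a limma adjusted p of 0.525.

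Of the 8 other miRNAs with the smallest p, 6 were lower in HF+Ex livers by fold change and 2 were higher, with limma adjusted p between 0.303 and 0.356, so none passed. miR-148b-3p had 532, 423 and 344 RPM in HF+Ex livers, against 682, 811 and 841 RPM in HF livers, with a log2 fold change of -0.86. miR-106b-5p, of the miR-17 seed, had 128, 77.1 and 66.7 RPM in HF+Ex livers, against 130, 187 and 132 RPM in HF livers, a log2 fold change of -0.75. In both the groups were apart, though for miR-106b-5p only by the narrow gap between HF+Ex 1 and HF 1. The log2 fold changes of miR-130a-3p, let-7g-3p, miR-140-5p and miR-1839-3p were -0.53, -0.95, -0.52 and -0.76, and of these 4 miR-140-5p overlapped between the groups. The value of let-7g-3p was -0.56 without HF+Ex 1 and -0.51 with a pseudocount of 5 RPM, that of miR-1839-3p was -0.48 with that pseudocount, and that of miR-130a-3p was -0.33 without HF 2. Without HF+Ex 1 miR-140-5p was called, at -0.73 (limma adjusted p = 0.0321). let-7a-5p, a member of the let-7 family of differentiation-linked miRNAs, had 35965, 30883 and 39071 RPM in HF+Ex livers, against 26111, 24882 and 27612 RPM in HF livers, a log2 fold change of 0.42. miR-30e-3p had 195, 171 and 197 RPM in HF+Ex livers, against 140, 126 and 140 RPM in HF livers, a log2 fold change of 0.47. For these higher miRNAs every HF+Ex library was above every HF library.

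miRNAs that share a seed lay on 1 side of 0 in several groups. Of the 12 seeds with at least 3 tested members that matched a RefSeq sequence, the miR-148/152 seed had the lowest median log2 fold change, -0.86, with 3 of 3 members below 0, 1 called and all 3 without overlap. miR-152-3p had the smallest difference of the 3, -0.30, with 1950, 2243 and 1801 RPM in HF+Ex livers against 2256, 2643 and 2489 RPM in HF livers. The miR-17 seed had a median of -0.75, with 5 of 5 members below 0, 2 called and 3 without overlap. Its most abundant member, miR-93-5p, was not called: it had 3346, 3586 and 3231 RPM in HF+Ex livers, against 3230, 4589 and 4040 RPM in HF livers, which overlap, and its log2 fold change was -0.21. The miR-130/301 seed had 3 of 3 members below 0, a median of -0.34 and 0 called. The let-7 seed was on the other side, with 9 of 9 members above 0, a median of 0.21, 4 without overlap and 0 called. The miR-99/100 and miR-125/351 seeds had higher medians, each 0.27, with 3 of 3 members above 0. Of their members 2 and 1 were without overlap, and 0 were called. Without HF+Ex 1 the miR-125/351 median was 0.07, and 1 of its 3 members was below 0. With 1 library left out in turn the miR-99/100 median stayed between 0.23 and 0.31. The miR-200b/200c/429 seed and the seed of miR-30a, miR-30c and miR-30e had 3 of 3 below 0, with medians of -0.33 and -0.10. With some libraries left out each had only 2 of 3 below 0, and miR-30c-5p stood at -0.002. miR-30b-5p and miR-30d-5p, of the same family, matched no sequence and are not counted there. Their log2 fold changes were -0.16 and 0.02. Over all 351 tested miRNAs, 180 were below 0, the median was -0.01, 0.855% were called, and 8.26% were lower and 9.69% higher without overlap; close relatives may share reads. With 1 library left out in turn, the median stayed between -1.02 and -0.71 for the miR-148/152 seed, between -1.02 and -0.56 for the miR-17 seed and between 0.18 and 0.28 for the let-7 seed, with 3, 5 and 0 members below 0 each time. For the miR-130/301 seed it lay between -0.44 and -0.22, with the smaller size without HF+Ex 3. Without HF 2 only 2 of its 3 members were below 0.

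**Figure D3:**
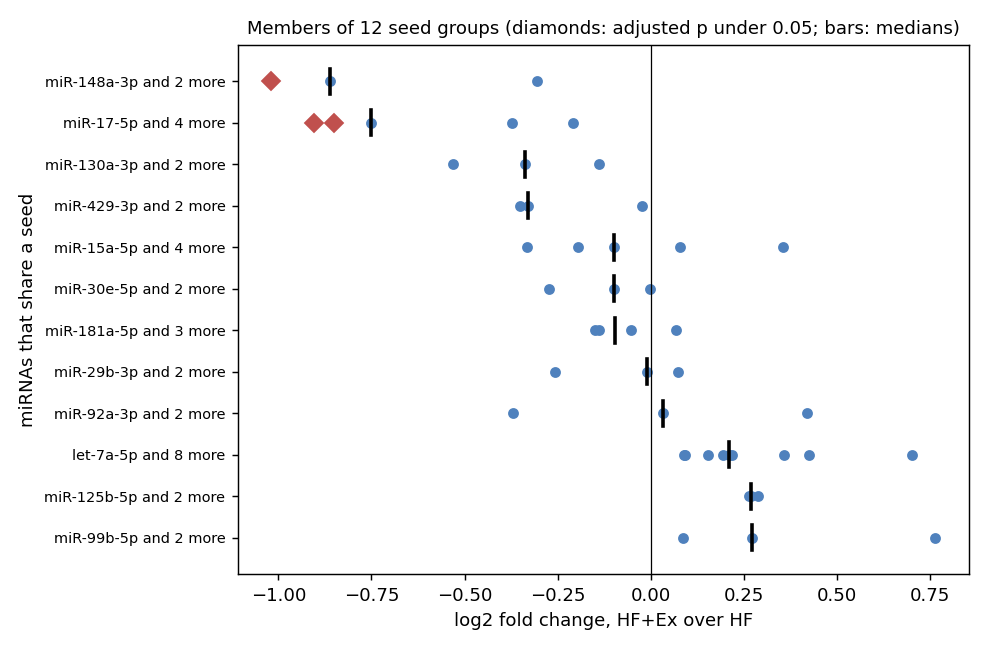
Log2 fold change, HF+Ex over HF, of each tested member of the 12 seeds with at least 3 tested members, named by 1 member, with diamonds for called miRNAs and bars for medians. The miR-148/152 and miR-17 seeds have the lowest medians, -0.86 and -0.75, and the let-7 seed has all 9 members above 0.

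Reads can also be summed over the tested miRNAs of a seed that matched a RefSeq sequence, a setting chosen after seeing the data. A miRNA without a matched sequence stayed single even where it has family members, as miR-30d-5p did. The sum does not depend on how reads were divided between the summed members, unless a read was counted for more than 1 of them. Some entries, such as let-7a-1-3p and let-7c-2-3p, were listed at the same values, and whether their reads were counted more than once is not known. Summing gave 294 features, of which 231 were seeds and 63 were single miRNAs with no matched sequence. The miR-148/152 sum was 16133, 13779 and 12867 RPM in HF+Ex livers, against 31401, 24367 and 26063 RPM in HF livers, and thus did not overlap. Its log2 fold change was -0.93 (SE 0.19), and its limma adjusted p over the 294 features was 0.0565. The miR-17 seed sum, most of it miR-93-5p, had a log2 fold change of -0.34 and a limma adjusted p of 0.608. The let-7 sum had a log2 fold change of 0.24 and a limma adjusted p of 0.552. None of the 294 features passed limma's threshold, with 24 at an unadjusted p under 0.05.

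The arms of a hairpin did not always move together. Mir17hg is transcribed as 1 RNA, yet its mature miRNAs had log2 fold changes of -0.90 for miR-17-5p, -0.34 for miR-17-3p, -0.48 for miR-18a-5p, -0.47 for miR-19a-3p, -0.85 for miR-20a-5p, -0.30 for miR-19b-3p and 0.42 for miR-92a-3p. miR-19b-3p and miR-92a-3p also have a hairpin on chromosome X. For miR-148a the 3p arm had a log2 fold change of -1.02 and the 5p arm, at 59.8, 87.0 and 105 RPM in HF+Ex livers against 65.6, 111 and 87.2 RPM in HF livers, had -0.07. The difference between arms was tested as the log2 ratio of the more abundant arm to the other for 100 hairpins with both arms tested, an analysis added after seeing the data. In 6 of 100 hairpins, 6%, the ratio changed (limma adjusted p = 0.0473 for each, Benjamini-Hochberg over 100).

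For Mir17 the ratio of 3p to 5p was 1.49, 1.47 and 1.61 in HF+Ex livers, against 0.960, 0.996 and 1.11 in HF livers. The 3p arm was thus the more abundant one in every HF+Ex library, and the arms were near parity in HF libraries. The log2 difference was 0.57 (SE 0.16). For Mir106b the ratio of 5p to 3p was 2.60, 2.65 and 2.31 in HF+Ex livers, against 4.76, 6.14 and 3.81 in HF livers, a log2 difference of -0.93 (SE 0.26). For Mir193a, named here because its ratio changed, the ratio of 5p to 3p was 2.41, 2.24 and 2.49 in HF+Ex livers, against 1.40, 1.04 and 1.52 in HF livers, a log2 difference of 0.86 (SE 0.23). The other 3 were Mir1839, Mirlet7g and Mir30e, with log2 differences of the 5p to 3p ratio of 1.14, 1.04 and -0.74. Mir1839 is on a list of miRNAs that overlap small nucleolar or Cajal body RNAs, and whether its reads came from such an RNA was not tested. The let-7g ratio rests on a rare arm: let-7g-3p was at 1.22, 3.61 and 4.35 RPM in HF+Ex livers, against 6.08, 6.19 and 6.78 RPM in HF livers. For Mir148a the log2 difference of the 3p to 5p ratio was -0.94 (SE 0.36), which did not pass (limma adjusted p = 0.169) and was -0.62 without HF 1. Without HF+Ex 1 the count of changed ratios was 9, and without any 1 of the other 5 libraries it was 0.

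The called miRNAs were also counted within lists by role. Of 13 hepatocyte miRNAs, 1 fell (miR-148a-3p), 0 rose and 9 were below 0, with a median log2 fold change of -0.07, which was -0.23 without HF 1. Of 22 tested regulators of lipid and sterol metabolism, 1 fell, again miR-148a-3p, and the median was -0.16, or -0.04 without HF+Ex 3. At an unadjusted p under 0.05, 4 of these 22 were lower and 1 was higher, and 6 were lower and 2 higher without overlap. Over all 351 miRNAs, 0.855% were called and 180 were below 0. At an unadjusted p under 0.05, 5.13% of the 351 were lower and 3.42% higher. Without overlap, 8.26% were lower and 9.69% higher. Of 26 regulators of insulin signalling and glucose, 0 passed in either direction (1 at an unadjusted p under 0.05 each way) and the median was -0.00, with a range of -0.07 to 0.09 when 1 library was left out in turn. Among the 10 miRNAs highest by mean RPM, 0 passed: miR-122-5p had a log2 fold change of 0.16, miR-21a-5p of -0.20, miR-29a-3p of 0.07, miR-194-5p of -0.17, miR-192-5p of -0.10, miR-29c-3p of -0.01 and miR-101b-3p of -0.29. The let-7 members let-7f-5p, let-7a-5p and let-7c-5p are the other three. Of 16 tested let-7 arms 14 were above 0, with a median of 0.21 (0.12 without HF+Ex 3), and of 16 tested members of the miR-17-92 cluster and its paralogues 12 were below 0, with a median of -0.26 and 2 called.

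Markers of other cell types were checked in the same fit, and 0 passed limma's test on any list; at an unadjusted p under 0.05 the neuronal list had 1 lower and 1 higher and the others 0. The leukocyte and Kupffer cell markers had 6 of 12 above 0 and a summed level of 6067 to 8431 RPM in HF+Ex livers, against 6767 to 8637 RPM in HF livers. miR-223-3p, a myeloid miRNA, had 2087, 1478 and 1854 RPM in HF+Ex livers, against 1389, 1215 and 817 RPM in HF livers, without overlap (log2 fold change 0.68, limma adjusted p = 0.787). miR-142-3p, a miRNA of blood cells, overlapped and had a log2 fold change of -0.33. The erythroid sum was 3481 to 4847 RPM in HF+Ex livers against 3394 to 6670 RPM in HF livers, with 4 of 5 below 0. The endothelial sum was 21481 to 24458 RPM in HF+Ex livers against 19142 to 20737 RPM in HF livers, without overlap and with 4 of 5 above 0. Most of that sum was miR-126-3p and miR-126-5p, the only endothelial markers without overlap. miR-221-3p, miR-221-5p and miR-222-3p overlapped, the last with 486, 229 and 209 RPM in HF+Ex livers, against 277, 286 and 321 RPM in HF livers. The stellate and mural sum was 10104 to 12180 RPM in HF+Ex livers against 10936 to 12104 RPM in HF livers, with 6 of 10 below 0. miR-199a-3p and miR-199b-3p were listed at nearly the same values and are both in that sum; with miR-199-3p counted once it was 8816 to 10874 RPM in HF+Ex livers against 9922 to 11001 RPM in HF livers. The epithelial and biliary markers, which include the miR-200 family, had 10 of 12 below 0 and a median of -0.31, with a sum of 3705 to 4247 RPM in HF+Ex livers against 4211 to 4836 RPM in HF livers. The neuronal sum was 402 to 510 RPM in HF+Ex livers against 481 to 572 RPM in HF livers, with 4 of 8 below 0. Skeletal muscle and pancreas markers were near 0, at 14.6 to 21.7 RPM in HF+Ex livers against 8.33 to 27.0 RPM in HF livers for muscle and 3.66 to 6.95 RPM in HF+Ex livers against 3.57 to 6.01 RPM in HF livers for pancreas. With 1 library left out in turn, the number below 0 was 5 to 8 of 12 leukocyte, 2 to 5 of 5 erythroid, 0 to 2 of 5 endothelial, 5 to 8 of 10 stellate, 8 to 11 of 12 epithelial and 3 to 4 of 8 neuronal markers. The part of other cell types in the 3 calls was not tested.

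Exercise on the LF diet gave a different picture, though the labels do not say whether the exercise itself was the same on both diets. Between LF+Ex and LF livers 0 of 351 miRNAs passed, 0%, with 41 at an unadjusted p under 0.05 and a median log2 fold change of -0.19. The difference between the diets, the log2 fold change of HF+Ex over HF minus that of LF+Ex over LF, was called for 3 miRNAs, 0.855%, all negative, with 58 at an unadjusted p under 0.05. They were miR-148a-3p, miR-33-5p and miR-17-5p. Scaling by size factors in place of the library total moved the median of the difference by -0.17 and made 8 calls in place of 3.

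miR-148a-3p had 34248, 31348 and 28262 RPM in LF+Ex livers, against 15739, 18107 and 12748 RPM in LF livers. On the LF diet the exercised livers were thus all higher, and on the HF diet all lower, and the HF+Ex range overlapped the LF range. The log2 fold change was -1.02 on HF and 1.02 on LF, and their difference was -2.04 (SE 0.30, 95% interval -2.69 to -1.39, limma adjusted p = 0.00212).

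miR-33-5p had 11.8, 12.7 and 12.99 RPM in LF+Ex livers, against 6.35, 5.14 and 5.57 RPM in LF livers. It too was higher with exercise on LF in every library and lower on HF. The difference between the diets was -2.07 (SE 0.37, limma adjusted p = 0.00824). Both differences passed under every alternative in which these miRNAs were tested, 21 for miR-148a-3p and 20 for miR-33-5p. The summed miR-148/152 seed differed between the diets by -1.83 (limma adjusted p = 0.00166 over the 294 features).

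miR-17-5p had 103, 107 and 97.9 RPM in LF+Ex livers, against 104, 81.9 and 80.0 RPM in LF livers, which overlap. HF+Ex was thus the low group of the 4, and its values also lay below all LF values. The difference between the diets was -1.12 (SE 0.24, limma adjusted p = 0.0286), and it passed in 11 of 21 alternatives, among them without HF+Ex 1 and without LF 1 but in none of the other 10 omissions of a library, where the limma adjusted p lay between 0.0506 and 0.117.

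**Figure D4:**
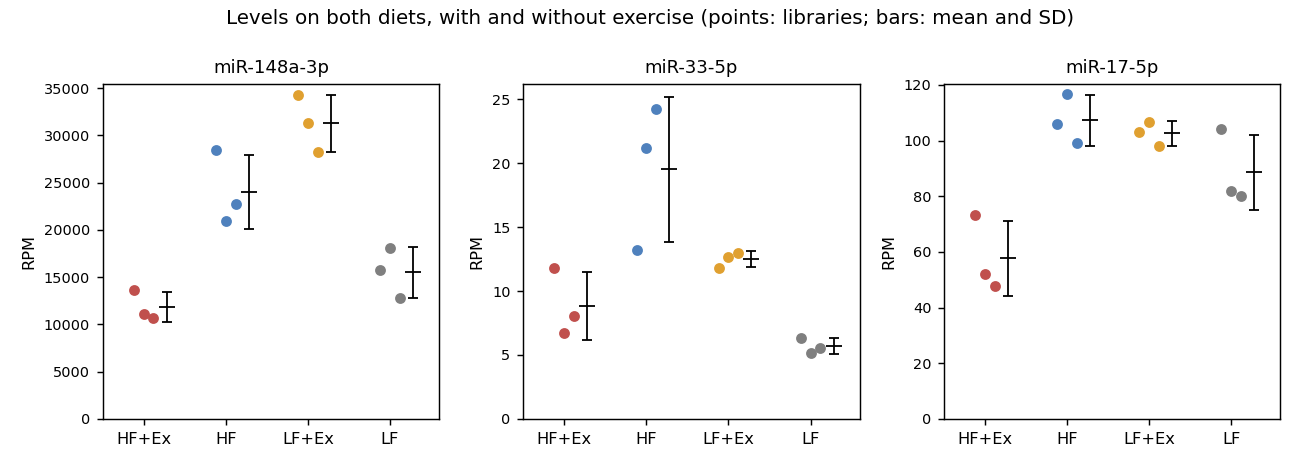
RPM of the 3 miRNAs whose difference with exercise was called as unlike on the 2 diets, in each HF+Ex, HF, LF+Ex and LF library (points), with mean and SD. miR-148a-3p and miR-33-5p are lower with exercise on HF and higher on LF, and miR-17-5p is low in HF+Ex alone of these 4 groups.

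The 2 exercise comparisons share no library. Over the 351 miRNAs their log2 fold changes had Pearson's r = -0.34 and Spearman's rho = -0.33, given as a description across miRNAs, which are not independent. The sign was opposite for 212 of 351, 60.4%. All 18 miRNAs lower at an unadjusted p under 0.05 on HF were above 0 on LF, against 107 of all 351. Of the 12 that were higher on HF, 10 were below 0 on LF. That count stands beside 244 of all 351 below 0 on LF, or 69.5%. Only 8 of the 12 were below the LF median of -0.19. The let-7 seed had 9 of 9 members above 0 on HF and 9 of 9 below 0 on LF, with medians of 0.21 and -0.40; with size factors the LF count was also 9 and the LF median -0.22. let-7a-5p had 19725, 26177 and 21897 RPM in LF+Ex livers, against 28727, 28275 and 32166 RPM in LF livers, without overlap, and its difference between the diets, 0.83, did not pass (limma adjusted p = 0.0532).

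**Figure D5:**
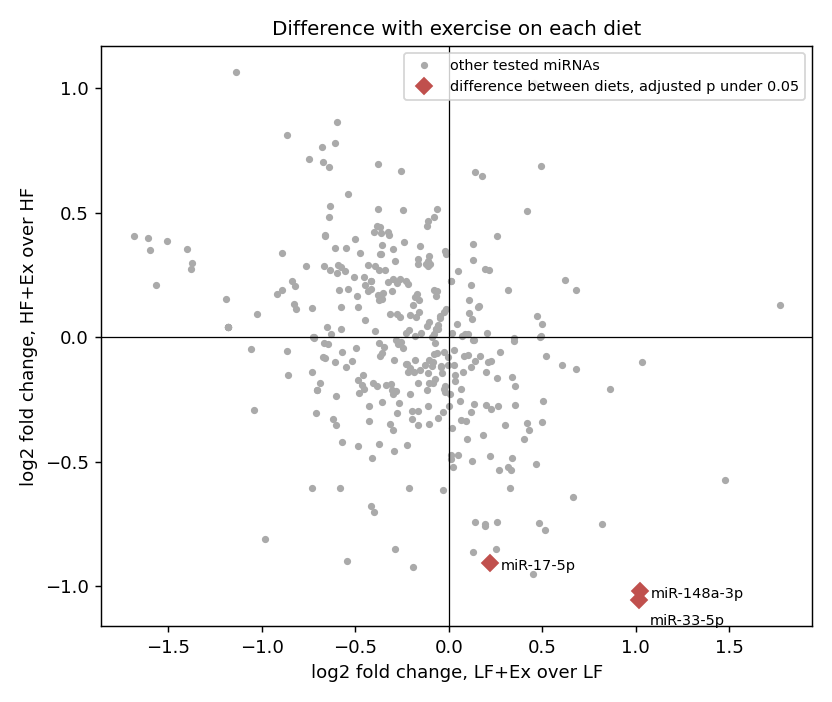
Log2 fold change of each of 351 miRNAs with exercise on the LF diet (LF+Ex over LF) and on the HF diet (HF+Ex over HF), with diamonds for the 3 whose difference between the diets was called. The points slope downward (Pearson's r = -0.34), and miR-148a-3p and miR-33-5p lie together near 1.02 on LF and below -1 on HF.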

How the data were processed

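Small RNA of 18 mouse liver libraries, 6 groups of 3 set by the sample titles, was measured as RPM. The authors deposited RPM for 758 miRNAs, per the file headers, in a series table and per-sample tables that differ by at most 1.09e-11 RPM. The submitters' processing notes name the genome build mm10. Not given in the sources used here are the aligner, the read counting and the miRNA release. In each library 100% of values fell on multiples of 1 RPM step (within 0.001 reads), the smallest listed value being 2 reads, and this step gave the depth.

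miRNAs with 5 RPM in at least 3 of 18 libraries were tested on log2(RPM + 1) with limma 3.58.1 (R 4.3.3) over all 18 libraries with an intensity trend, two-sided, with Benjamini-Hochberg adjustment and a threshold of 0.05. Fold changes on this scale understate those of low miRNAs. A planned quasi-likelihood count test was not run; limma with voom weights on the implied reads stood in. Named miRNAs were the called ones filled to 12 by the smallest p, the 10 highest by mean RPM, members of literature lists, other arms and shared seeds of the first 12, and those called for the difference between diets. Other miRNAs were named after their values were seen: Mir193a, and Mir17hg members beyond the rule. The members and lists were chosen with earlier results of these data known. miR-126, miR-142, miR-486 and miR-219 were matched as the files spell them, without the letter a. Same-numbered HF+Ex and HF libraries did not deviate together (r = -0.149, -0.164 and 0.020), so numbers were not taken as pairs. Figures were drawn with matplotlib 3.10.9. Alternatives were another pseudocount (5), no filter or 50 RPM, size factors, compared groups only, no trend, library weights, a replicate block, voom weights and each library left out.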

Additional observations from a re-analysis of the deposited data

Results flagged for a closer look

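The effect of exercise differed between the diets, by a test of the difference itself, for 3 miRNAs. The log2 fold change on HF minus that on LF was -2.04 for miR-148a-3p (limma adjusted p = 0.00212), -2.07 for miR-33-5p (limma adjusted p = 0.00824) and -1.12 for miR-17-5p (limma adjusted p = 0.0286). For miR-148a-3p and miR-33-5p every exercised library was below every HF library on the HF diet and above every LF library on the LF diet. The depth of HF+Ex 1, 2.38 megareads, was the lowest of the series, and without it the difference was still called for all 3. The miR-17-5p difference was called in 2 of 12 omissions of a library and 11 of 21 alternatives, while the other two were called in every alternative in which they were tested.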

How the results depend on the processing

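For the 12 miRNAs with the smallest p, no log2 fold change between HF+Ex and HF changed sign under the alternatives. The same held for the 3 called differences between diets and for the arm ratios of Mir148a and Mir20a. Members of the lists were less stable: 4 of 5 erythroid markers were below 0 with all libraries, and 2 to 5 with 1 left out. Of 23 list medians, 15 changed sign with some library left out, among them those of the insulin and glucose, leukocyte, erythroid and neuronal lists. With size factors 3 changed sign, and the median of all 351 miRNAs between HF+Ex and HF moved from -0.01 to 0.00. The count of miRNAs called between HF+Ex and HF was 3, and 3 with a pseudocount of 5 and with a 50 RPM filter. It was 1 with no filter, size factors, compared groups only or no trend, and 2 with voom weights. With library weights it was 14 (11 lower, 3 higher), and with matched miRNAs summed by seed it was 0. It was 0 to 5 with 1 library left out. The count for the difference between diets was 3, and 5 with no filter, 8 with size factors, 12 with compared groups only, 45 with library weights and 2 to 4 with 1 library left out. The count of arm ratios was 6, and 2 with no trend and 0 to 9 with 1 library left out. The cause of these shifts was not tested; library weights gave HF+Ex 1 a weight of 0.481 and HF 3 one of 3.02, and their iterations stopped before the tolerance was met. With the replicate block the counts were 2, 3 and 4 for HF+Ex against HF, the difference between diets and the arm ratios, and miR-148a-3p had an adjusted p of 0.0535 (limma). Only miR-17-5p, of the 3 called, also passed with no filter, size factors and no trend, while only miR-148a-3p passed with compared groups only. Depth limits miRNAs of low RPM most in HF+Ex 1, where 1 read was worth 0.406 RPM.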

Other observations

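The leading miRNAs share letters near their 5′ ends. The word GUGC was found in the first 9 bases of 20 of the 288 tested miRNAs with a sequence, 6.94%. Of these, 19 were below 0 between HF+Ex and HF, with a median log2 fold change of -0.42, and they included the 3 called miRNAs. Over all 351 tested miRNAs, 180 were below 0 and 0.855% were called. Between LF+Ex and LF 9 of the 20 were below 0, with a median of 0.07, against 244 of all 351. The word was singled out after its values were seen, as the one with the lowest median of 51 words of that length held by at least 10 miRNAs, and it overlaps the miR-17, miR-148/152 and miR-130/301 seeds, so it gets no test.

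The log2 fold change between HF+Ex and HF had a Pearson's r of 0.22 and a Spearman's rho of 0.20 with the percentage of G and C in the mature sequence over 288 miRNAs, and of 0.02 and -0.04 with its length. Between LF+Ex and LF the values for G and C were -0.07 and -0.12. These describe the miRNAs of the same libraries and are given without a p.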
